A study of Homo sapiens with 8 samples.

Results

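The gene set described here holds 40 human genes that signal DNA breaks, join broken ends, or repair single-strand breaks. The rule names the genes and uses no measured value, although the set was proposed with earlier results of these data known. All 40 were among the 46427 gene symbols of the count table, and all 40 were among the 18303 genes that passed the filter on low counts. By role, they are 8 genes of the signalling kinases and the sensor clamp, 4 of checkpoint effectors and a regulator, MDM4, 5 of chromatin marking at breaks and 10 of end joining. The other members are 6 genes of single-strand break sensing, scaffold and ligation, 3 of end cleaning and 4 of base excision.

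Messenger RNA was sequenced from wild-type cells derived from H7, an established human embryonic stem cell line, and labelled diff-AEC2, for differentiated alveolar epithelial type 2 cells, which make the lung's surfactant. All groups were grown alike: 21 days to lung progenitors, 3 days submerged on inserts and 7 days with air on the apical side. The 4 groups, of 2 libraries each, are untreated cells and cells given 24, 240 or 480 µg/ml bleomycin apically, for 24 hours. The labels do not say whether the 2 libraries of a group came from separate cultures, so the spread behind each p-value may be only technical. The bleomycin stock concentration in the labels is lower than all of the doses.

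Bleomycin is a drug that cuts DNA through free radicals and leaves breaks in 1 or both strands, often with blocked ends. Breaks in both strands are sensed by the kinase ATM and bound by the Ku ring, which recruits the end-joining ligase. Breaks in 1 strand are sensed by poly(ADP-ribose) polymerases, cleaned by end-processing enzymes, filled and sealed by XRCC1 and its partners. These proteins are largely controlled by phosphorylation and recruitment, which messenger RNA does not measure.

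Levels are given in CPM, counts relative to the library total after scaling between libraries. A value ± error is a mean ± SD over n = 2 libraries, or, where named as log2, a log2 fold change ± SE. A gene is called, or said to rise or fall, where its adjusted p from edgeR over all 18303 genes was under 0.05. Libraries held 53431773 to 67715984 counts. SFTPC, a surfactant gene that defines type 2 cells, was counted 5 times in 1 library of 24 µg/ml, 7 in 1 of 480 µg/ml and 0 in the other 6, where 3 counts would be at most 0.0561 CPM (counting error only). The 11 type 2 markers summed to 163 and 165 CPM in untreated cells and to 94.96 and 104 CPM at 480 µg/ml, and 8 of the 11 passed the filter. LPCAT1 made up most of that sum, with 119.9 and 116 CPM untreated and 60.3 and 60.2 CPM at 480 µg/ml. At that dose 4 of the 8 fell, beside 13.9% of all tested genes called lower, while ABCA3 rose (log2 1.15 ± 0.16). SFTPB had 14.9 and 16.9 CPM in untreated cells, and the lung transcription factor gene NKX2-1 had 0.827 and 1.02 CPM. The hepatic gene AFP took 3.37% to 6.34% of the counts of a library, and the intestinal gene CDX2 had 206 and 190 CPM in untreated cells. The defining markers therefore do not match the labelled cell type, and the cells are named here by their label only.

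The 2 libraries of 480 µg/ml stood apart from each other. Ribosomal RNA took 1.21% of the counts in replicate 1 and 3.3% in replicate 2, against 1.32% to 2.93% in the other groups. Mitochondrial genes took 1.7% and 3.02%, against 1.06% to 2.06%. The part of these shares in the gap was not tested. Over the 40 members, log2 ratios between both libraries of a group (after adding 0.5 CPM) had an SD of 0.386 at 480 µg/ml, against 0.129 to 0.153 in the other groups, and over all tested genes it was 0.412 against 0.236 to 0.255. Where leaving out 1 of these libraries changed a member's call at 480 µg/ml against untreated cells, the value without it is given. For the other comparisons, counts of members called are given, and such values for ATM only.

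Promoter sequence was matched for 35 of the 40 members (RefSeq, GRCh38.p14). No entry was matched for HUS1, WEE1, XRCC5, PRKDC and POLB. Of these, 9 have several listed starts, and the first listed was used. Windows of 300 bases, 250 before that start and 50 after it, were searched on both strands for the letters CCAAT, the box bound by NF-Y. They were shared by 5 of the 6 matched members that fell at 480 µg/ml (83.3%), by 1 of the 4 that rose (25%) and by 12 of the 25 that were not called (48%). The share was 51.4% of all 35 members and 36% of the 13134 promoters of tested genes. With the windows of all listed starts, a choice added after seeing the data, the box was in 5 of the 6 that fell, 4 of the 4 that rose (100%), 13 of the 25 not called (52%) and 42.3% of tested genes, so the difference between members that fell and rose rests on the choice of start. A match is a description of letters, not of a bound site. The stretches below are shown because they hold the box in members called at 480 µg/ml, with CCAAT or its complement ATTGG in capitals. CHEK1, APEX1 and OGG1 are cut to the part before that start that no annotated exon covers (GENCODE v29), and CHEK2 and MDC1, where an annotated exon covers the box, are cut to 30 bases.
CHEK1, chr11:125626035-125626228, plus strand: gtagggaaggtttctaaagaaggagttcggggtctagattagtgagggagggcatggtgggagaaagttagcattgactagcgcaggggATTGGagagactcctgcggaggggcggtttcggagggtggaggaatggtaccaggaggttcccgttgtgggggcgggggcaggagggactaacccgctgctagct
APEX1, chr14:20455106-20455190, plus strand: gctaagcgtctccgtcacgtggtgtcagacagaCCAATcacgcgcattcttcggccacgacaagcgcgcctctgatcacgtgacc
CHEK2, chr22:28741843-28741872, minus strand: gagggggttttgATTGGctgagggtggagt
MDC1, chr6:30717318-30717347, minus strand: cagcggcagaagCCAATcagcaaataagct
OGG1, chr3:9749702-9749943, plus strand: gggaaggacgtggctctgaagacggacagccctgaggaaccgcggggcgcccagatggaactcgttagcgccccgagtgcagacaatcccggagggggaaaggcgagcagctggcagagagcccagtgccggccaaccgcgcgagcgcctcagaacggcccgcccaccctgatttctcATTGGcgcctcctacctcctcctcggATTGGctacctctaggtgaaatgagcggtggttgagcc
CHEK1 has 3 listed starts, and the one used, at chr11 position 125626229, lies inside the RefSeq gene, which begins at 125625136. CHEK2 has 1, at 28741820, inside its outer gene end at 28741834. The box nearest the start used lay 105 bases before it in CHEK1, 87 in APEX1, 54 in MDC1, 46 in OGG1 and 40 in CHEK2. The fifth member that fell and holds the box is XRCC4, where it begins at the start itself, and PARP1, which also fell, has none in its window. OGG1, which rose, holds 2. The E2F letters TTTNNCGC were in 3 of the 35 windows (8.57%, against 9.81% of tested genes), the cell cycle letters TTTGAA in 6 (17.1% against 10.3%) and the NRF1 motif in 7 (20% against 10.2%). None of those 7 was a called member.

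In untreated cells the level of the members, compared per length in TPM (a level per transcript length, relative to the library), spanned from 1.45 TPM for PARP3 to 322 TPM for TDP2. The 4 highest were TDP2, XRCC6 at 320 TPM, APEX1 at 302 TPM and XRCC5 at 199.6 TPM. TDP2 stood at 301 and 344 TPM in the 2 untreated libraries, XRCC6 at 309.7 and 331 TPM and APEX1 at 305 and 299 TPM, so that the order of these 3 is not separated by the spread between libraries. PARP1 followed at 71.4 TPM and WEE1 at 60.9 TPM. Both Ku subunits, XRCC5 and XRCC6, were thus among the highest, while the ligase LIG4 that they recruit stood at 8.42 TPM, the kinase ATM at 4.71 TPM and ATR at 3.72 TPM. The lowest 3 were ATRIP at 3.17 TPM, APLF at 2.16 TPM and PARP3.

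**Figure D1:**
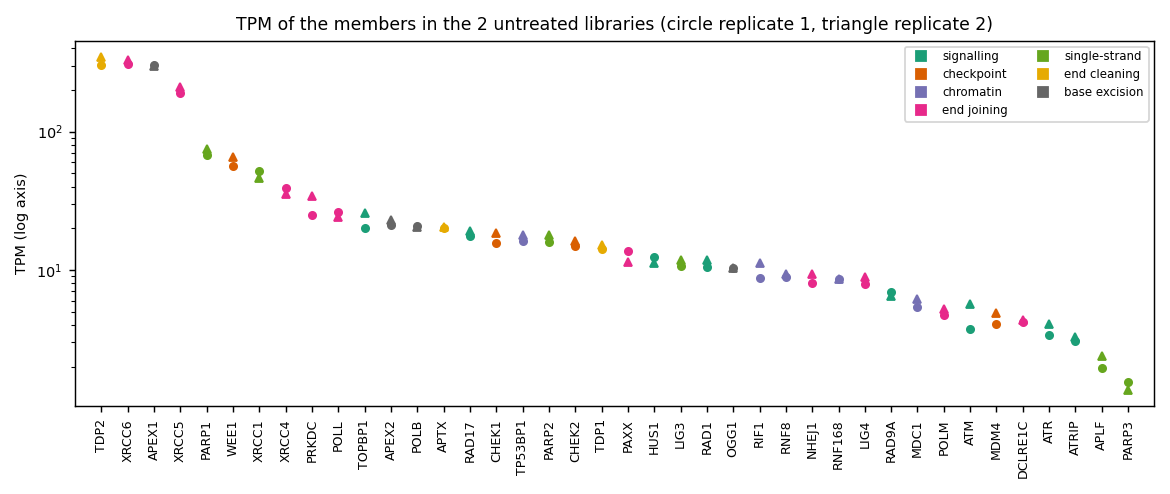
TPM (log axis) of the 40 members in the 2 untreated libraries, ordered by their mean, with circles for replicate 1 and triangles for replicate 2 and colours for roles. TDP2, XRCC6, APEX1 and XRCC5 stand above the rest, from 199.6 to 322 TPM, and PARP3 is lowest at 1.45 TPM.

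At 24 µg/ml no member was called, and neither was any other tested gene (0% in each direction). By DESeq2 no member was called either, with 36 genes called in all, and 605 of all tested genes had an unadjusted edgeR p under 0.05. Only XRCC4 had an unadjusted edgeR p under 0.05, at 24.5 and 22.6 CPM against 35.0 and 30.2 CPM in untreated cells (log2 −0.47 ± 0.19, adjusted p = 1). The members' median log2 fold change was 0.01, as it was over all tested genes.

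At 240 µg/ml 1 member rose and 4 fell. The riser was OGG1, and CHEK1, XRCC4, PRKDC and PARP1 fell. That is 2.5% and 10% of members, beside 5.16% and 5.17% of all tested genes called higher and lower. The members' median log2 fold change was −0.14, with 28 of 40 below 0, and the median over all tested genes was 0.01. Fitted on only the 4 libraries compared, which leaves out the wider spread of the 480 µg/ml libraries, 8 members rose (20%) and 12 fell (30%), beside 15.3% and 15.7% of all genes. Without replicate 1 or 2 of 480 µg/ml 6 rose and 12 fell in each case (12.5% and 12.9% of all genes higher, 13.4% lower). Without untreated replicate 1 or 2 no member was called (0.351% and 0.357% of all genes higher, 0.439% and 0.492% lower), so the members' counts moved with those of all genes. Against 24 µg/ml in place of untreated cells, OGG1 again rose and CHEK1 and PRKDC fell, beside 3.34% of all tested genes called higher and 3.49% lower. These comparisons share the 240 µg/ml libraries.

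At 480 µg/ml 5 members rose and 8 fell. LIG4, POLL, APTX, POLB and OGG1 rose, and CHEK1, CHEK2, WEE1, MDC1, XRCC4, PRKDC, PARP1 and APEX1 fell. That is 12.5% and 20% of members, beside 13.9% of all tested genes called higher and 13.9% lower, so the share that rose lies near the background. Without replicate 1 of 480 µg/ml 8 rose and 15 fell (19.5% and 21.7% of all genes), without untreated replicate 1 the counts were 1 and 8 (4.94% and 6.88%), and without untreated replicate 2 they were 0 and 5 (4.94% and 6.7%). Fitted on only the 4 libraries compared, 0 rose and 7 fell (7.43% and 8.81% of all genes). The median log2 fold change was −0.07 for the members and 0.01 for all tested genes. All 5 members called at 240 µg/ml were also called at 480 µg/ml in the same direction, though both doses were set against the same untreated libraries. Between 480 and 240 µg/ml no member was called by edgeR or DESeq2, beside 0.0273% of all tested genes called higher and 0.229% lower. In that comparison 7 members had an unadjusted edgeR p under 0.05, POLB higher and CHEK1, CHEK2, WEE1, MDC1, NHEJ1 and APEX1 lower. Over all tested genes 2055 had such a p (11.2%).

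**Figure D2:**
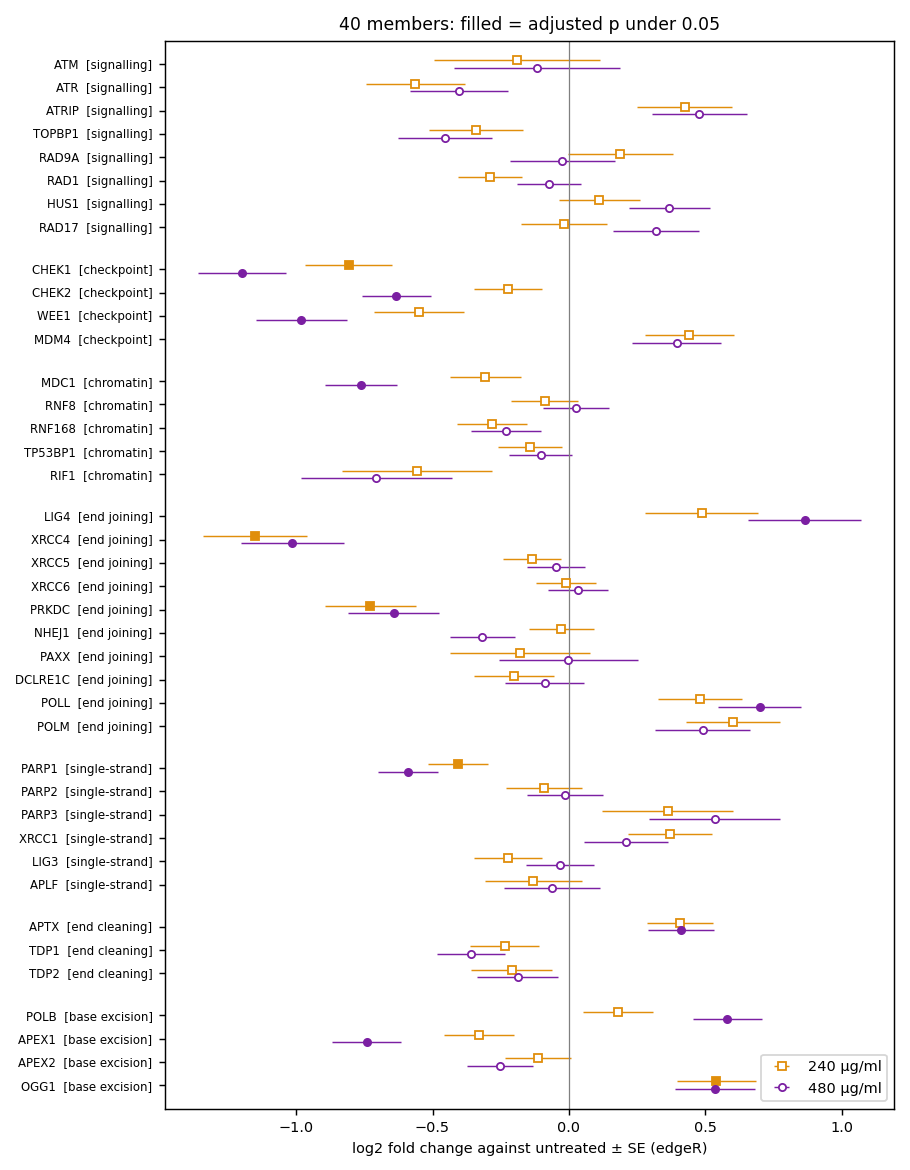
Log2 fold change ± SE of each member at 240 µg/ml (squares) and 480 µg/ml (circles) against untreated cells, grouped by role, with filled symbols where the adjusted p was under 0.05. CHEK1 is lowest at 480 µg/ml (−1.20) and LIG4 highest (0.86), and no signalling kinase or clamp gene is filled.

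Of the 4 checkpoint genes 3 fell at 480 µg/ml, beside 13.9% of all tested genes called lower. Among the 3 was CHEK1, which had the lowest log2 fold change of the 40 members. CHEK1, the kinase that ATR switches on, had 22.0 and 24.6 CPM untreated, 22.5 and 22.8 CPM at 24 µg/ml, 14.5 and 12.1 CPM at 240 µg/ml and 11.4 and 8.91 CPM at 480 µg/ml. Every library of the higher doses lay below every library of untreated cells and of 24 µg/ml. Its log2 fold change was −0.81 ± 0.16 at 240 µg/ml (edgeR adjusted p = 0.018) and −1.20 ± 0.16 at 480 µg/ml (adjusted p = 0.00119). WEE1, the kinase that holds CDK1 inactive, had 88.0 and 95.5 CPM untreated, 90.3 and 86.6 CPM at 24 µg/ml, 64.5 and 60.8 CPM at 240 µg/ml and 54.7 and 38.4 CPM at 480 µg/ml. Its levels did not overlap between the higher and the lower doses, and it fell at 480 µg/ml (log2 −0.98 ± 0.17, edgeR adjusted p = 0.00323). At 240 µg/ml WEE1 missed the threshold (log2 −0.55 ± 0.16, adjusted p = 0.067), but was called lower by DESeq2 (adjusted p = 0.0153).

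CHEK2, the kinase that ATM switches on, had 12.5 and 12.9 CPM untreated, 12.3 and 13.4 CPM at 24 µg/ml, 11.1 and 10.6 CPM at 240 µg/ml and 8.15 and 8.21 CPM at 480 µg/ml. The 2 libraries of 480 µg/ml agreed closely for this gene, at a fall of log2 −0.63 ± 0.13 (edgeR adjusted p = 0.00665). MDM4, the uncalled gene of this role, had 18.1 and 19.3 CPM untreated, 18.2 and 23.8 CPM at 24 µg/ml, 22.7 and 27.96 CPM at 240 µg/ml and 25.02 and 24.1 CPM at 480 µg/ml. The levels of MDM4 at 24 and 240 µg/ml overlapped (log2 0.39 ± 0.16 at 480 µg/ml, adjusted p = 0.102). The calls of CHEK1 and WEE1 at 480 µg/ml held under all 16 alternatives, and CHEK2 lost its call without untreated replicate 2 (adjusted p = 0.0582). CHEK1 at 240 µg/ml lost its call without either untreated library (adjusted p = 0.089 and 0.14) or either library of 240 µg/ml (0.068 and 0.167).

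Genes of dividing cells moved alongside these kinases. Of 15 such genes 12 fell at 240 µg/ml and 14 at 480 µg/ml, beside 5.17% and 13.9% of all tested genes, and PCNA was not called. Their summed level was 967 and 1003 CPM untreated, 963 and 1026 CPM at 24 µg/ml, 579.7 and 542 CPM at 240 µg/ml and 381 and 329 CPM at 480 µg/ml. MKI67, a marker of cycling cells, had 119 and 126 CPM untreated and 32.3 and 18.1 CPM after 480 µg/ml (log2 −2.28 ± 0.24, edgeR adjusted p = 0.00041). In bulk RNA, fewer cells of a type and less RNA per cell cannot be told apart, and the part of dividing cells in the falls of the members was not tested. Other cell markers moved at 480 µg/ml as well, where 13.9% of all tested genes were called each way. Of 8 mesenchymal genes 5 fell and 1 rose, with summed levels of 465 and 504 CPM untreated and 493 and 434 CPM at that dose. LUM made up most of that sum, with 316 and 316 CPM untreated and 398 and 329 CPM at 480 µg/ml. Of 7 tested intestinal genes 3 fell and 1 rose. Of 10 hepatic genes 4 rose, among them the fibrinogen genes FGA (log2 2.58 ± 0.22), FGB (1.35 ± 0.15) and FGG (1.92 ± 0.27). The part of these cell markers was not tested either.

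**Figure D3:**
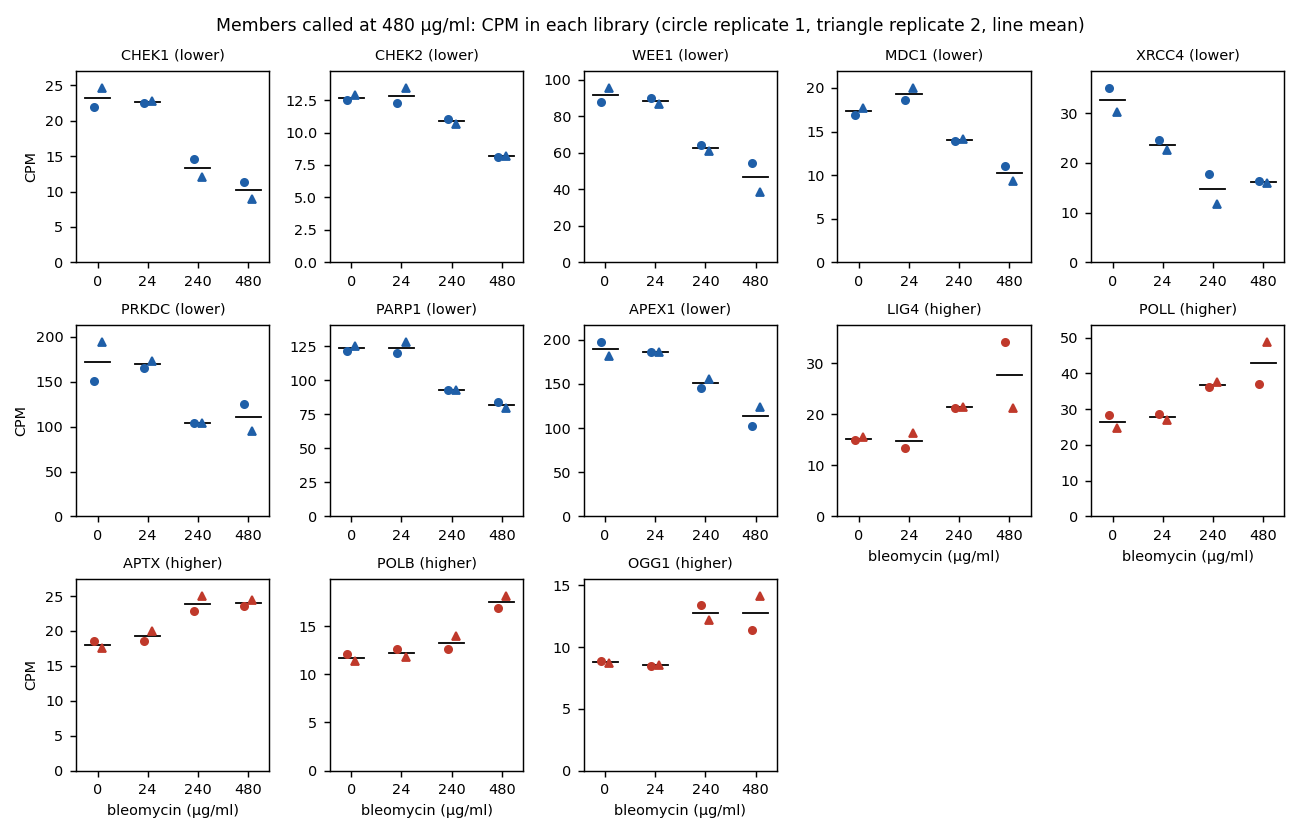
CPM in each library of the 13 members called at 480 µg/ml against untreated cells, by bleomycin dose, with circles for replicate 1, triangles for replicate 2 and a line for the mean of the 2. Each axis starts at 0. CHEK1 goes from 22.0 and 24.6 CPM in untreated cells to 11.4 and 8.91 CPM at 480 µg/ml, and LIG4 shows a wide gap between the 2 libraries of 480 µg/ml, 34.1 and 21.3 CPM.

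None of the 8 signalling kinase and clamp genes was called by edgeR over the 8 libraries at any dose. Over all tested genes 13.9% were called higher and 13.9% lower at 480 µg/ml. ATM, the kinase that answers breaks in both strands, had 21.8 and 26.9 CPM untreated, 25.3 and 29.1 CPM at 24 µg/ml, 21.4 and 21.2 CPM at 240 µg/ml and 31.0 and 13.9 CPM at 480 µg/ml. The highest and the lowest of these 8 values are the 2 libraries of 480 µg/ml, and the log2 fold change was −0.12 ± 0.30 (edgeR adjusted p = 0.805). Without replicate 1 of 480 µg/ml it was −0.82 (adjusted p = 0.00245), and without replicate 2 it was 0.35 (adjusted p = 0.0873), so that the direction for ATM rests on which library is used.

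ATR, the kinase that answers single-stranded DNA, had 12.5 and 13.97 CPM untreated, 11.8 and 13.9 CPM at 24 µg/ml, 9.26 and 8.70 CPM at 240 µg/ml and 11.7 and 8.34 CPM at 480 µg/ml. Both libraries of 240 µg/ml lay below all libraries of the lower doses, but ATR missed the threshold over 8 libraries (log2 −0.56 ± 0.18, edgeR adjusted p = 0.0826). On the 4 libraries compared its adjusted p was 0.00539. ATR had log2 −0.40 ± 0.18 at 480 µg/ml (edgeR adjusted p = 0.126), −0.68 (adjusted p = 0.00641) without replicate 1 of that dose and −0.18 (adjusted p = 0.387) without replicate 2. Its partner ATRIP stood at 6.29 and 5.46 CPM untreated and 7.59 and 8.77 CPM at 480 µg/ml, higher where ATR was lower, but it was not called (log2 0.48 ± 0.17, adjusted p = 0.0709, and 0.57 with adjusted p = 0.0367 without replicate 1 of 480 µg/ml). TOPBP1, which activates ATR and has the highest TPM of this role, had 51.4 and 58.2 CPM untreated, 53.3 and 56.8 CPM at 24 µg/ml, 42.5 and 44.0 CPM at 240 µg/ml and 47.4 and 32.6 CPM at 480 µg/ml. Its level at 480 µg/ml gave log2 −0.45 ± 0.17 (edgeR adjusted p = 0.0822), −0.76 (adjusted p = 0.000671) without replicate 1 of 480 µg/ml and −0.21 (adjusted p = 0.158) without replicate 2. TOPBP1 was called lower by DESeq2 (adjusted p = 0.04996). The 3 subunits of the clamp that marks damaged DNA, RAD9A, RAD1 and HUS1, had log2 fold changes of −0.02 ± 0.19, −0.07 ± 0.12 and 0.37 ± 0.15 at 480 µg/ml. RAD17, which loads the clamp, had 23.0 and 23.8 CPM untreated and 33.8 and 24.6 CPM at 480 µg/ml (log2 0.32 ± 0.16, adjusted p = 0.164). Without replicate 2 of 480 µg/ml, RAD17 and HUS1 were called higher (log2 0.53 and 0.50, adjusted p = 0.00444 and 0.0192).

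Of the 5 genes that mark chromatin at breaks, MDC1 fell at 480 µg/ml, beside 13.9% of all tested genes called lower. MDC1, the scaffold that binds phosphorylated histone H2AX, had 16.9 and 17.7 CPM untreated, 18.6 and 19.99 CPM at 24 µg/ml, 13.9 and 14.1 CPM at 240 µg/ml and 11.04 and 9.38 CPM at 480 µg/ml. The 4 groups did not overlap, and the fall at 480 µg/ml (log2 −0.76 ± 0.13, edgeR adjusted p = 0.00345) held under all 16 alternatives. TP53BP1, which steers breaks towards end joining and has the highest TPM of this role, had 73.8 and 78.1 CPM untreated, 79.5 and 82.8 CPM at 24 µg/ml, 66.6 and 71.0 CPM at 240 µg/ml and 74.3 and 67.0 CPM at 480 µg/ml (log2 −0.10 ± 0.12 at 480 µg/ml, adjusted p = 0.537). Its libraries of untreated and 480 µg/ml cells overlapped.

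The ubiquitin ligase genes RNF8 and RNF168 were not called. RNF168 had 20.5 and 19.4 CPM untreated, 20.8 and 20.7 CPM at 24 µg/ml, 16.2 and 16.6 CPM at 240 µg/ml and 18.5 and 15.6 CPM at 480 µg/ml, with a log2 fold change of −0.23 ± 0.13 at 480 µg/ml (edgeR adjusted p = 0.211) and −0.37 (adjusted p = 0.0228) without replicate 1 of that dose. RNF8 was at 13.9 ± 0.785 CPM untreated and 14.2 ± 0.686 CPM at 480 µg/ml (n = 2 libraries each). RIF1, which limits the cutting back of broken ends, had 54.4 and 65.2 CPM untreated and 49.3 and 24.1 CPM at 480 µg/ml, the second widest gap between those 2 libraries among the members. Its log2 fold change of −0.71 ± 0.28 (adjusted p = 0.0879) became −1.32 (adjusted p = 0.000168) without replicate 1 of 480 µg/ml and −0.28 (adjusted p = 0.132) without replicate 2. RIF1 was called lower by DESeq2 (adjusted p = 0.0185).

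Among the 10 end-joining genes, 2 rose and 2 fell at 480 µg/ml, beside 13.9% of all tested genes called each way. The ligase and its own partner moved in opposite directions. LIG4, the ligase that seals the joined ends, had 15.0 and 15.5 CPM untreated, 13.5 and 16.2 CPM at 24 µg/ml, 21.3 and 21.4 CPM at 240 µg/ml and 34.1 and 21.3 CPM at 480 µg/ml. XRCC4, the protein that binds and stabilises LIG4, had 35.0 and 30.2 CPM untreated, 24.5 and 22.6 CPM at 24 µg/ml, 17.7 and 11.7 CPM at 240 µg/ml and 16.4 and 15.9 CPM at 480 µg/ml. LIG4 was higher in all 4 libraries of the higher doses than in the other 4, and XRCC4 was lower in all 4. LIG4 rose by log2 0.86 ± 0.21 at 480 µg/ml (edgeR adjusted p = 0.015), with 0.47 (adjusted p = 0.016) without replicate 1 of 480 µg/ml and 1.16 (adjusted p = 0.000301) without replicate 2. XRCC4 fell by log2 −1.15 ± 0.19 at 240 µg/ml (edgeR adjusted p = 0.00977) and −1.01 ± 0.19 at 480 µg/ml (adjusted p = 0.00489), the latter under all 16 alternatives.

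PRKDC, the catalytic subunit of the kinase that Ku recruits, had 150 and 194 CPM untreated, 165 and 173 CPM at 24 µg/ml, 104 and 104 CPM at 240 µg/ml and 126 and 95.03 CPM at 480 µg/ml. The 2 untreated libraries lay further apart than those of 24 or 240 µg/ml, yet neither overlapped with the higher doses. PRKDC fell by log2 −0.73 ± 0.17 at 240 µg/ml (edgeR adjusted p = 0.029) and −0.64 ± 0.17 at 480 µg/ml (adjusted p = 0.0209). POLL, a polymerase that fills gaps at the joined ends, had 28.3 and 24.6 CPM untreated, 28.7 and 26.9 CPM at 24 µg/ml, 36.1 and 37.6 CPM at 240 µg/ml and 37.0 and 48.7 CPM at 480 µg/ml. All 4 libraries of the higher doses lay above the rest, and POLL rose at 480 µg/ml (log2 0.70 ± 0.15, edgeR adjusted p = 0.0104). POLM, the related polymerase gene, had 6.00 and 6.30 CPM untreated, 7.08 and 6.91 CPM at 24 µg/ml, 8.74 and 9.92 CPM at 240 µg/ml and 7.34 and 9.93 CPM at 480 µg/ml, and was not called by edgeR (log2 0.60 ± 0.17 at 240 µg/ml, adjusted p = 0.0591). DESeq2 called both POLM (adjusted p = 0.0478) and POLL (adjusted p = 0.0433) higher at 240 µg/ml. POLM had log2 0.49 ± 0.17 at 480 µg/ml (edgeR adjusted p = 0.0647), and 0.68 (adjusted p = 0.0055) without replicate 1.

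Neither Ku subunit was called at any dose. XRCC6 had 295.6 and 295.8 CPM untreated, 279.7 and 294 CPM at 24 µg/ml, 288 and 299 CPM at 240 µg/ml and 285 and 319.6 CPM at 480 µg/ml (log2 0.03 ± 0.11 at 480 µg/ml, edgeR adjusted p = 0.853). XRCC5 stood at 293 ± 9.71 CPM untreated and 283 ± 13.4 CPM at 480 µg/ml (n = 2 libraries each). At 480 µg/ml NHEJ1, which bridges the ends, had a log2 fold change of −0.32 ± 0.12 and the nuclease gene DCLRE1C −0.09 ± 0.15, and neither was called. Without replicate 2 of 480 µg/ml NHEJ1 was called lower (log2 −0.35, adjusted p = 0.0382). PAXX, which steadies Ku at ends, was not called either (adjusted p = 0.995). It had 3.24 and 5.59 CPM in the 2 libraries of 480 µg/ml, with the higher value in replicate 2. Fitted on only the 2 groups compared, LIG4, PRKDC and POLL lost their calls at 480 µg/ml, and LIG4 and PRKDC also lost them with limma on TPM. PRKDC at 240 µg/ml lost its call with the replicate block and with limma on TPM. Calls at 480 µg/ml were lost for LIG4 without untreated replicate 1 or 2 (edgeR adjusted p = 0.0974 and 0.0854), for PRKDC without untreated replicate 2 (0.18) and for POLL without untreated replicate 2 (0.106). At 240 µg/ml the call of XRCC4 was lost without untreated replicate 1 or 2 (edgeR adjusted p = 0.0839 and 0.055) or 240 µg/ml replicate 2 (0.0774), and that of PRKDC without each library of untreated, 24 or 240 µg/ml cells in turn (0.06 to 0.225).

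Of the 6 single-strand break genes, PARP1 fell and no other was called. Over all tested genes 5.17% were called lower at 240 µg/ml and 13.9% at 480 µg/ml. PARP1, the main sensor that builds ADP-ribose chains at breaks, had 122 and 125 CPM untreated, 120.1 and 128 CPM at 24 µg/ml, 93.0 and 93.1 CPM at 240 µg/ml and 84.4 and 79.5 CPM at 480 µg/ml. Its 2 libraries agreed closely in each group, and the higher doses lay below the others without overlap. PARP1 fell by log2 −0.41 ± 0.11 at 240 µg/ml (edgeR adjusted p = 0.0481) and −0.59 ± 0.11 at 480 µg/ml (adjusted p = 0.00488). The related sensors PARP2 and PARP3 had log2 fold changes of −0.01 ± 0.14 and 0.53 ± 0.24 at 480 µg/ml and were not called, and the difference between them and PARP1 was not tested.

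XRCC1, the scaffold that gathers the single-strand repair enzymes, had 47.9 and 40.2 CPM untreated, 44.3 and 47.1 CPM at 24 µg/ml, 55.1 and 58.7 CPM at 240 µg/ml and 44.4 and 57.4 CPM at 480 µg/ml. Its values at 480 µg/ml overlapped with those of untreated cells (log2 0.21 ± 0.15, edgeR adjusted p = 0.344, and 0.37 with adjusted p = 0.0309 without replicate 1 of 480 µg/ml). Its partner LIG3, the ligase of this pathway, stood at 34.4 ± 1.12 CPM untreated and 33.6 ± 2.61 CPM at 480 µg/ml. APLF, which binds ADP-ribose chains, stood at 3.60 ± 0.333 and 3.45 ± 0.18 CPM (n = 2 libraries each). The call of PARP1 at 240 µg/ml was lost with no filter on low counts, with the replicate block and with limma on TPM. At 480 µg/ml PARP1 lost its call without untreated replicate 2 (edgeR adjusted p = 0.0548). At 240 µg/ml it lost it without each library of untreated, 24 or 240 µg/ml cells in turn (adjusted p = 0.0989 to 0.272).

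Among the 3 end-cleaning genes APTX rose at 480 µg/ml, beside 13.9% of all tested genes called higher. APTX, which removes stalled ligation intermediates, had 18.5 and 17.6 CPM untreated, 18.5 and 20.1 CPM at 24 µg/ml, 22.8 and 24.97 CPM at 240 µg/ml and 23.5 and 24.4 CPM at 480 µg/ml. The higher doses lay above the others, but the call (log2 0.41 ± 0.12, edgeR adjusted p = 0.0329) was lost under 10 of the 16 alternatives, including without each library of untreated, 24 or 240 µg/ml cells in turn (adjusted p = 0.0638 to 0.214). TDP1, which frees ends blocked by topoisomerase I, had 23.1 and 23.1 CPM untreated, 23.4 and 23.2 CPM at 24 µg/ml, 20.4 and 18.8 CPM at 240 µg/ml and 19.4 and 16.6 CPM at 480 µg/ml, below the other groups without overlap at both higher doses, but not called (log2 −0.36 ± 0.13 at 480 µg/ml, adjusted p = 0.0626). Without replicate 1 of 480 µg/ml TDP1 was called lower (log2 −0.48, adjusted p = 0.0065). TDP2, the counterpart for topoisomerase II, had 262 and 279.8 CPM untreated, 259 and 230.02 CPM at 24 µg/ml, 249 and 219 CPM at 240 µg/ml and 268 and 207 CPM at 480 µg/ml. The groups of TDP2 overlapped, and its log2 fold change at 480 µg/ml was −0.19 ± 0.15 (edgeR adjusted p = 0.378), or −0.40 (adjusted p = 0.0259) without replicate 1 and −0.01 (adjusted p = 0.936) without replicate 2.

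Of the 4 base excision genes 3 were called at 480 µg/ml, in both directions, beside 13.9% of all tested genes called each way. APEX1, which cuts DNA at lost bases and trims blocked ends, had 197 and 181 CPM untreated, 186 and 186 CPM at 24 µg/ml, 146 and 156 CPM at 240 µg/ml and 103 and 124 CPM at 480 µg/ml. The higher doses did not overlap with each other or with the rest, and it fell at 480 µg/ml by log2 −0.74 ± 0.13 (edgeR adjusted p = 0.00348) under all 16 alternatives. OGG1, the glycosylase that removes oxidised guanine, had 8.90 and 8.68 CPM untreated, 8.49 and 8.53 CPM at 24 µg/ml, 13.4 and 12.2 CPM at 240 µg/ml and 11.4 and 14.1 CPM at 480 µg/ml. All libraries of the higher doses lay above all of the others, and OGG1 rose by log2 0.54 ± 0.15 at 240 µg/ml (edgeR adjusted p = 0.0489) and 0.54 ± 0.15 at 480 µg/ml (adjusted p = 0.0256).

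POLB, the polymerase that fills the gap, had 12.1 and 11.3 CPM untreated, 12.7 and 11.8 CPM at 24 µg/ml, 12.6 and 13.9 CPM at 240 µg/ml and 16.9 and 18.1 CPM at 480 µg/ml. It stood apart at 480 µg/ml (log2 0.58 ± 0.13, edgeR adjusted p = 0.0101), while 240 and 24 µg/ml overlapped. Fitted on only the 2 groups compared, POLB and OGG1 lost their calls at 480 µg/ml. OGG1 at 240 µg/ml lost its call with no filter on low counts, with the replicate block and with limma on TPM. APEX2, a relative of APEX1, had 30.8 and 31.1 CPM untreated, 30.6 and 31.3 CPM at 24 µg/ml, 28.5 and 28.7 CPM at 240 µg/ml and 24.0 and 28.01 CPM at 480 µg/ml, and was not called (log2 −0.25 ± 0.12, adjusted p = 0.155, and −0.37 with adjusted p = 0.0169 without replicate 2 of 480 µg/ml). At 480 µg/ml POLB lost its call without untreated replicate 1 or 2 (edgeR adjusted p = 0.0655 and 0.103), and OGG1 without either of them (0.125 and 0.149) or without 480 µg/ml replicate 2 (0.0567). At 240 µg/ml OGG1 lost it without each library of untreated, 24 or 240 µg/ml cells in turn (adjusted p = 0.0883 to 0.256).

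**Figure D4:**
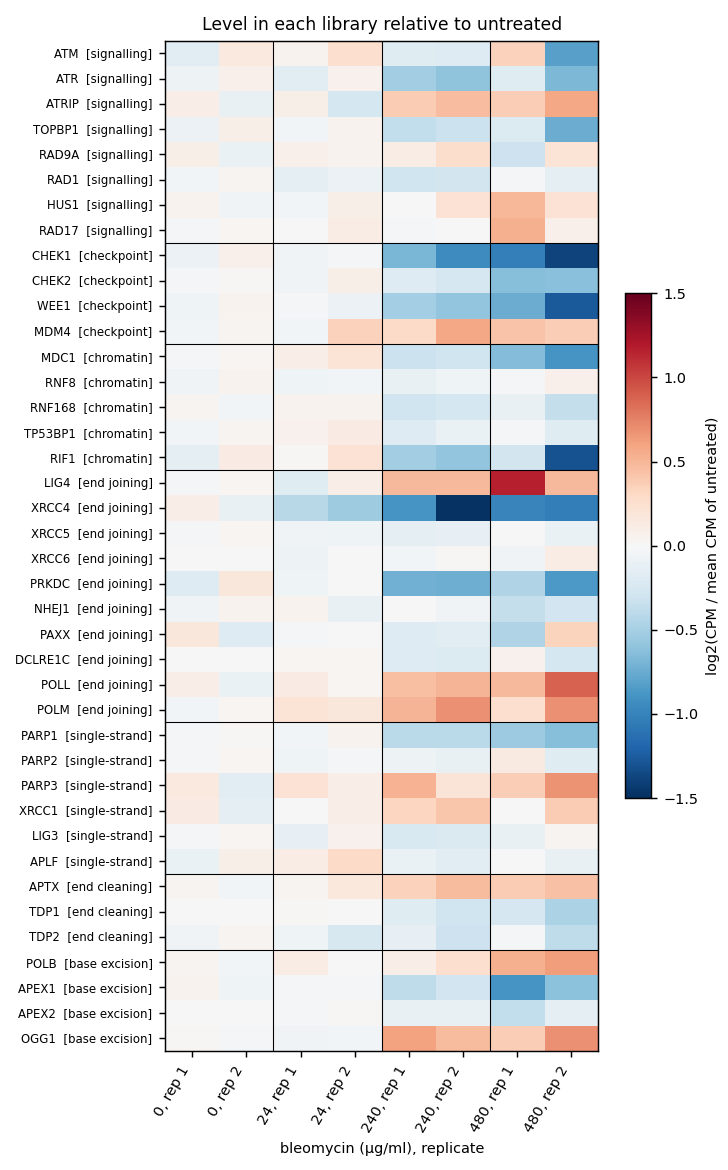
Log2 ratio of CPM in each library to the mean of the 2 untreated libraries, with 1 row per member grouped by role and 1 column per library. Blue is lower and red higher. The 2 right-hand columns, the libraries of 480 µg/ml, differ in ATM (31.0 and 13.9 CPM) and RIF1 (49.3 and 24.1 CPM), while CHEK1 and XRCC4 are blue in all 4 libraries of the higher doses.

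The gap between the 2 libraries of 480 µg/ml followed the span of the gene on the genome (RefSeq, GRCh38.p14). Across the 40 members the log2 ratio of replicate 1 to replicate 2 had Pearson's r of 0.522 and Spearman's rho of 0.505 with log10 span, and across 17447 tested genes r was 0.416 and rho 0.448. In untreated cells r was −0.551 and rho −0.522 across the members, and −0.209 and −0.261 across all tested genes. The sign rests on which library is numbered 1, so only the sizes can be compared. In size, the untreated correlations were close to those of 480 µg/ml across the members and smaller across all tested genes. These correlations describe genes that share the same libraries and carry no test. The 3 members highest in replicate 1 of 480 µg/ml relative to replicate 2 were ATM, which spans 146 kb, RIF1 with 125 kb and LIG4 with 10.9 kb, so that LIG4 departs from the pattern. The members that fell at 480 µg/ml had a median span of 50.7 kb (2.54 to 297 kb), those that rose 33.3 kb (9.39 to 52.5 kb) and those not called 40.8 kb (1.55 to 146 kb). The members' log2 fold change also went with span, with r of −0.411 and rho of −0.414 for 240 µg/ml, against −0.0676 and −0.14 across all tested genes. For 480 µg/ml r was −0.311 and rho −0.407, against −0.0423 and −0.0939. Between the 2 libraries of 240 µg/ml r was 0.308 and rho 0.338 across the members, and 0.0639 and 0.0956 across all tested genes. The part of span in the members' calls was not tested.

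**Figure D5:**
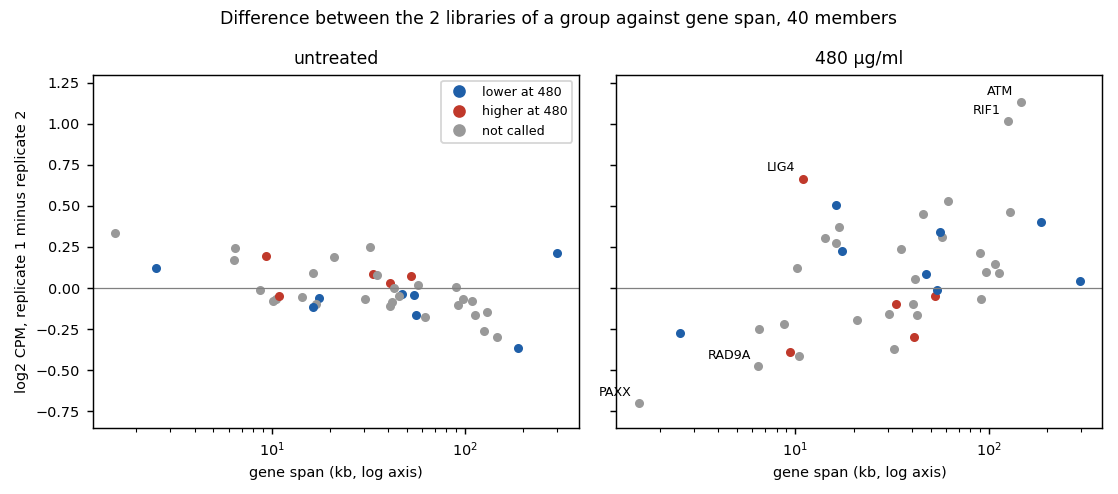
Log2(CPM + 0.5) of replicate 1 minus replicate 2 against gene span in kb (log axis) for the 40 members, in untreated cells (left) and at 480 µg/ml (right), coloured by the call at 480 µg/ml. The points spread more on the right, with ATM (1.13) and RIF1 (1.01) highest and PAXX (−0.70) lowest.

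Many members share a promoter region with a neighbour that is read in the other direction. Of the 35 matched members 14 (40%) had a coding gene starting within 1000 bases on the other strand, against 12.2% of 12033 tested coding genes. The calls that follow are for 480 µg/ml against untreated cells, where 13.9% of all tested genes were called higher and 13.9% lower. In 1 of the 14 pairs both rose, POLL and DPCD, whose starts lie 51 bases apart (DPCD log2 0.56 ± 0.16, edgeR adjusted p = 0.0322). In 2 pairs the genes moved in opposite directions. APEX1 fell while OSGEP, 414 bases away, rose (log2 0.59 ± 0.14, edgeR adjusted p = 0.0136), and APTX rose while DNAJA1, 153 bases away, fell (log2 −0.41 ± 0.11, adjusted p = 0.0227). In 3 pairs only the member was called (CHEK2, LIG4 and XRCC4), in 3 only the neighbour and in 5 neither.

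Exons shared with another gene leave some levels uncertain, since neither the annotation nor the strand that was counted is given in the sources used here. In GENCODE v29, 17 members share at least 50 exon bases with another coding gene, and 6 share over 20% of their exon bases. OGG1 is the called member among these 6, with 25% of its exon bases facing CAMK1 on the other strand, and CAMK1 itself was not called (log2 0.27 ± 0.25, edgeR adjusted p = 0.461). TP53BP1 with TUBGCP4 (28.7%) and LIG3 with RFFL (29.1%) also overlap on opposite strands. TUBGCP4 was called lower at 480 µg/ml (log2 −0.92 ± 0.16, edgeR adjusted p = 0.00351), and RFFL was not called. ATRIP with TREX1 (27.9%), NHEJ1 (65.4%) and APLF with PROKR1 (22.8%) overlap on the same strand, so the strand counted would not separate them. PROKR1 was not called at 480 µg/ml. The count table also has rows for the fused transcript ATRIP-TREX1 and for the antisense gene MDC1-AS1, so the levels of ATRIP and MDC1 depend on how reads were divided.

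Genes of the same pathways outside the 40 were counted by role. Of 31 other genes of break signalling and checkpoints 5 rose and 7 fell at 240 µg/ml, beside 5.16% and 5.17% of all tested genes. At 480 µg/ml 7 rose and 9 fell, beside 13.9% of all tested genes called each way. MDM2, a ubiquitin ligase gene, rose from 126 and 130.1 CPM in untreated cells to 498 and 421 CPM (log2 1.84 ± 0.13, edgeR adjusted p = 0.000107), and the phosphatase genes CDC25A and CDC25B, whose products CHEK1 and CHEK2 inhibit, fell (log2 −1.44 ± 0.13 and −1.15 ± 0.11). CDKN1A, the inhibitor of cycle kinases, rose from 189 and 158 CPM to 763 and 1149 CPM (log2 2.46 ± 0.19).

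Of 11 other tested genes of end joining and end resection, which cuts ends back for other pathways, none rose and 6 fell at 480 µg/ml. Over all tested genes 13.9% were called each way at that dose. At 240 µg/ml none was called, and 5 had an unadjusted edgeR p under 0.05, beside 27.1% of all tested genes. Those with the smallest p were the nuclease genes EXO1 (log2 −1.23 ± 0.21) and DNA2 (−0.94 ± 0.16) and the polymerase gene POLQ (−1.51 ± 0.27). Of 19 other genes of end cleaning, base excision and ADP-ribose removal, 3 rose and 5 fell at 480 µg/ml. Beside 13.9% of all tested genes each way, the share that rose lies near the background. At 240 µg/ml 1 rose and 2 fell, beside 5.16% and 5.17% of all tested genes. FEN1, which trims flaps during replication and long-patch repair, fell from 22.9 and 24.9 CPM to 9.45 and 10.1 CPM (log2 −1.29 ± 0.12, edgeR adjusted p = 0.00032). UNG, which removes uracil, and MACROD1, which removes ADP-ribose, also fell (log2 −0.94 ± 0.13 and −1.21 ± 0.18). SMUG1, another uracil glycosylase gene, rose (log2 0.88 ± 0.17, edgeR adjusted p = 0.00553).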

How the data were processed

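Trimming, alignment and quantification used Trimmomatic, HISAT2, Bowtie2 and StringTie on GRCh38, per the submitters' processing notes; versions, annotation and the strand counted are not given in the sources used here. The authors deposited whole-number counts and TPM values per gene symbol and library (TruSeq stranded mRNA kit, per the labels' protocols). Counts were tested with edgeR 4.0.16 in R 4.3.3: TMM factors, filterByExpr (at least 10 counts, 15 in total), the quasi-likelihood test on all 8 libraries, modelling group alone, with p-values adjusted by Benjamini-Hochberg over 18303 genes (threshold 0.05). Common dispersion was 0.0226, with 4 degrees of freedom left among libraries and 4.98 from the prior. The SE is the log2 fold change divided by the square root of F. Total counts were 53431773 to 67715984, and a count of 0 allows up to 3 counts, 0.0443 to 0.0561 CPM, which covers counting error only. TPM served to compare levels between genes.

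The 5 comparisons were each dose with untreated cells, 240 with 24 µg/ml and 480 with 240 µg/ml. The 40 members, the lists of related genes and the alternatives were chosen with earlier results of these data known. The naming rule was: every member once, values per library for called members and, per role, for the member with the highest TPM and the uncalled one with the smallest p, up to 3 related genes per list by p at 480 µg/ml plus the highest called gene moving the other way, and CDKN1A, MDM2, MKI67, SFTPC, SFTPB, NKX2-1, AFP and CDX2. ATM, RIF1, RAD17, PAXX and other uncalled members were given further values after these were seen. The 16 alternatives were DESeq2 1.42.0, RLE factors, no filter, a stricter filter (50 counts in 2 libraries), only the 2 groups compared, a replicate block, limma 3.58.1 on log2(TPM + 1), removal of ribosomal, mitochondrial and AFP counts, and each library left out. Use of all listed promoter starts was added after seeing the data. The edgeR fit was tested on data simulated with the common dispersion. Against untreated cells it called 17.9% of planted 1.5-fold changes at 240 µg/ml and 7.46% at 480 µg/ml. Of planted 2-fold changes it called 73.1% and 76.1%. A member that was not called is therefore not shown to be unchanged.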

Additional observations from a re-analysis of the deposited data

How the results depend on the processing

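Leaving out a library leaves its group with 1, assumed to vary like the other groups. At 24 µg/ml no member was called under any of the 16 alternatives. At 240 µg/ml against untreated cells the members higher (1) became 3 with DESeq2, 8 with only the 2 groups compared, 0 with the replicate block, 0 with limma on TPM and 0 to 6 with a library left out. The members lower (4) became 12 with only the 2 groups, 2 with the replicate block and 0 to 12 with a library left out. At 480 µg/ml the members higher (5) became 0 with only the 2 groups, 3 with limma and 0 to 8 with a library left out, and the members lower (8) 5 to 15. With the replicate block 4 rose and 8 fell. For 240 against 24 µg/ml the members higher (1) became 5 with only the 2 groups, 0 with the replicate block, 0 with limma and 0 to 7 with a library left out. The members lower (2) became 6 with DESeq2, 5 with no filter, 12 with only the 2 groups, 1 with the replicate block, 1 with limma and 0 to 12 with a library left out. For 480 against 240 µg/ml, 0 higher became 0 to 3 and 0 lower 0 to 5 with a library left out. The share of all genes called moved too: for 240 µg/ml against untreated cells it was 15.3% higher and 15.7% lower with only the 2 groups and 3.43% and 3.61% with the replicate block, for 480 µg/ml 7.43% and 8.81% with only the 2 groups, and for 240 against 24 µg/ml 11.8% and 12.8% with only the 2 groups and 1.52% and 1.87% with the replicate block. DESeq2 called 1.9% higher and 2.44% lower of all 46427 symbols for 240 against 24 µg/ml, and 2.5% and 2.73% for 240 µg/ml against untreated cells. With limma the shares against untreated cells were 2.94% and 4.66% for 240 µg/ml and 11.3% and 13.2% for 480 µg/ml. For 240 against 24 µg/ml they were 1.51% and 2.76% with limma and 3.41% and 4.31% of 30765 genes with no filter. With the replicate block they were 11.6% and 12.4% for 480 µg/ml against untreated cells. Among the runs with a library left out, the highest counts of members came without a library of 480 µg/ml. In each comparison the highest shares of all genes called came in those same runs, so the members' counts moved with those of all genes. ATM reversed for 480 against 240 µg/ml: 0.07 over all libraries, −0.63 (adjusted p = 0.0397) without 480 µg/ml replicate 1 and 0.54 (adjusted p = 0.0499) without replicate 2. The replicate numbers were not shown to pair libraries, since deviations of same-numbered libraries correlated at −0.275 to 0.118 between groups. The cause of these changes was not tested. RLE factors and removal of abundant RNAs changed no member's call. A gene with 0 counts could have up to 0.0561 CPM at this depth.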
